A study of Mus musculus with 4 samples.

Results

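The 4 genes of the nuclear factor I (NFI) family, *Nfia*, *Nfib*, *Nfic* and *Nfix*, were examined as targets in an NFIC ChIP-Seq peak list from mouse pancreas, so that each gene was read as a place where a protein of its own family was detected. Members were the rows of the list whose gene name is 1 of these symbols, whatever their score. All 4 were found among the 9086 genes of the list, with 20 of its 15824 peaks. A further 5 peaks lay inside the bodies of these genes but were assigned to other genes, and these are left out of the counts of assigned peaks but enter the counts by gene body and by intron. Peaks were numbered along each gene in the direction of transcription, as *Nfib*-1 to *Nfib*-8, with those assigned to other genes included.

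Chromatin came from whole pancreas of wild-type mice, labelled as of mixed strain and, in the study's methods, mostly of C57BL/6 background. Mice were 8 to 10 weeks old by the paper's account of this experiment, although the deposited text gives 8 to 12 weeks. The tissue was fixed with formaldehyde and sonicated, NFIC was precipitated with a Bethyl antibody (A303-123A), and 3 ChIP libraries were sequenced beside 1 library of input DNA. The list merges the libraries and has 0 columns of values per library, which leaves no estimate of the spread between replicates. No test was run, and all values below are descriptions of 1 merged list. The depth of the libraries is unknown. Whole pancreas holds acinar, ductal, endocrine, vascular and immune cells, and a peak cannot be placed in 1 of them. The list holds no RNA, so the tissue label could not be checked against marker genes. No ChIP from *Nfic*-deficient pancreas is in the list, and these data do not test how far the antibody binds NFIA, NFIB or NFIX in chromatin. The study used *Nfic*-deficient pancreas, which still has the other NFI genes, as the specificity control of its anti-NFIC tissue staining, and whether the same antibody served for ChIP is not given in the sources used here.

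NFI proteins share a conserved DNA-binding and dimerization domain at the N-terminus and differ more in their C-terminal regions. They bind as homodimers or heterodimers to a palindrome of 2 arms set apart by a short spacer, and with lower affinity to a single arm. *Nfia* is known for gliogenesis and the formation of the corpus callosum, *Nfib* for lung maturation and forebrain development, *Nfic* for tooth root formation, and *Nfix* for the switch from embryonic to fetal muscle. In the pancreas, NFIC has been studied as a factor of acinar cells, which make the digestive enzymes.

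The sequences of the peaks are shown first, because the NFI site in them can be read directly. The NFI full site was defined as TGGC and GCCA separated by any 5 bases, with at most 1 mismatch over the 8 fixed bases. It is a palindrome, so that the search of the plus strand covers both strands. A site without mismatch is called exact. Sequences are from the plus strand of GRCm38, the assembly that mm10 represents, and windows are 200 bp centred on the peak. In the following 3 windows, of the highest peak of *Nfic*, the highest peak inside *Nfic* and the highest peak of *Nfia*, capitals mark the full sites.
Nfic-1, chr10:81435556-81435755: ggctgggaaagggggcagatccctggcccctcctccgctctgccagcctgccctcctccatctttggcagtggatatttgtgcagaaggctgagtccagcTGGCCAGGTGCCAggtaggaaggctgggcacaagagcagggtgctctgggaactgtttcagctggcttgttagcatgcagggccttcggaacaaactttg
Nfic-3, chr10:81417014-81417213: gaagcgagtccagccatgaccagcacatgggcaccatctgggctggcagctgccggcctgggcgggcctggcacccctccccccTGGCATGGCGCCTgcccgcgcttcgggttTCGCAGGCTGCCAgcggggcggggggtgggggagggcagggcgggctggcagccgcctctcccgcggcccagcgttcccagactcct
Nfia-4, chr4:97869143-97869342: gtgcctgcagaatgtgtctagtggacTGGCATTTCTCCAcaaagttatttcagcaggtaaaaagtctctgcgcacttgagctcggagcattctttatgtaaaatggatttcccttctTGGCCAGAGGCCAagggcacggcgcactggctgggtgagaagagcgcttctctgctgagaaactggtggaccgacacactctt

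In *Nfic*-1 and *Nfic*-3 a site lay within 10 bp of the peak centre, and in *Nfia*-4 the exact site lay 24 bp from it. The next 6 sequences are 30-base contexts of the best site of other peaks. They comprise the remaining exact sites (*Nfia*-1 and *Nfix*-5), the best sites of the 2 highest peaks of *Nfib*, and those of the highest peak assigned to *Nfix* and the highest peak inside *Nfix*. Capitals mark the fixed bases that match the site.
Nfia-1, chr4:97776499-97776528: aggcttgtTGGCaatgtGCCAaaccctaaa
Nfix-5, chr8:84744179-84744208: aatgcagtTGGCagctgGCCAgtgggccag
Nfib-1, chr4:82506497-82506526: tgccgcgcTGGCcgcgtcCCAatccccacc
Nfib-3, chr4:82447377-82447406: actcaatggGGCtcccaGCCAacccctgag
Nfix-3, chr8:84789060-84789089: ggccgcctTGGgctgagGCCAggccgtcct
Nfix-8, chr8:84722998-84723027: ctgcctctgGGCtctaaGCCAggaggcccc

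Both exact sites of *Nfia*, in *Nfia*-1 and *Nfia*-4, had the outer T and A that extend the palindrome by 1 base on each side. The exact site of *Nfix*-5 had 1 of these outer bases, and that of *Nfic*-1, in the highest peak of the family, had 0. The last window, of *Nfib*-4, is shown because it had no full site in spite of a high score. Capitals mark its single arms, TTGGCA on either strand, of which it held 4.
Nfib-4, chr4:82404358-82404557: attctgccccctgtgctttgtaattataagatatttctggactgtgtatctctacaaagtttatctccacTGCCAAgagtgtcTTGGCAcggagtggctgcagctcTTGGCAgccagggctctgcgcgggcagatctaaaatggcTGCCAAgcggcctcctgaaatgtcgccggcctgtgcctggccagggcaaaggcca

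Peak scores are those of the authors, in a unit for which no source gives a name, and a higher score ranks a peak higher in the list. All 4 members had at least 2 assigned peaks, and being the nearest gene of at least 1 peak was found for 35.9% of the 21774 protein-coding genes of the RefSeq annotation. *Nfib* had 8 peaks, *Nfia* and *Nfix* had 5 each, and *Nfic* had 2. Among the genes of the list, 4.48% had 5 or more peaks and 0.759% had 8 or more. Of the 4 NFI genes, 3 were in the former group and 1 in the latter. Scores of the 20 peaks ranged from 3.98 to 30.5 with a median of 11.2, whereas the 15824 peaks of the list ranged from 3.39 to 68.1 with a median of 6.57. The upper quartile of the list (scores of 9.16 or more) held 25.5% of all peaks and 12 of the 20 peaks of the NFI genes (60.0%). A further 5 were in the second quartile, 2 in the third and 1 in the lowest. The order of the genes depended on the measure. By number of peaks *Nfib* ranked 42nd of the list, *Nfia* and *Nfix* 219th and *Nfic* 1536th. These ranks are ties, shared by 28 genes with 8 peaks, 189 with 5 and 1968 with 2. By the highest score, in contrast, *Nfic* ranked 37th, *Nfib* 100th, *Nfia* 262nd and *Nfix* 1096th.

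**Figure D1:**
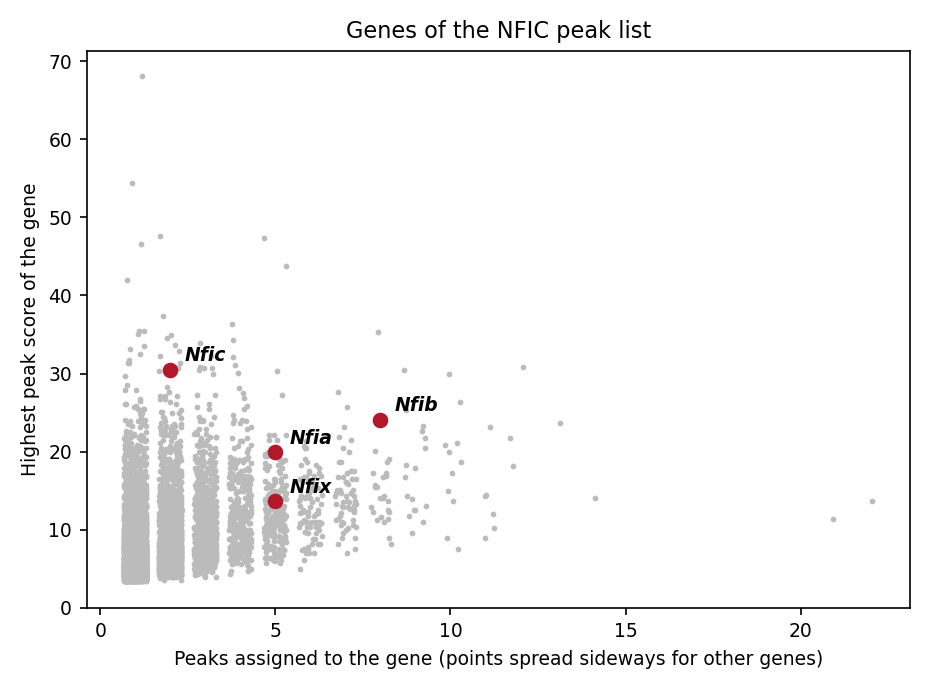
Each point is a gene of the list, with the number of peaks assigned to it (x axis) and its highest peak score (y axis, in the authors' units). The NFI genes are red and labelled: *Nfib* combined 8 peaks with a highest score of 24.1, whereas *Nfic* had 2 peaks and reached 30.5.

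The genes differ in length, so peaks were also counted per length of gene body. On this scale *Nfic* had 8.40 peaks per 100 kb (3 peaks in 35.7 kb), *Nfix* 7.25 (7 peaks in 96.5 kb), *Nfib* 3.69 (8 peaks in 217 kb) and *Nfia* 0.925 (5 peaks in 541 kb). The bodies of all protein-coding genes together held 0.911 peaks per 100 kb, and the chromosomes as a whole 0.581. The density of *Nfia* was thus close to that of gene bodies in general, and the other 3 genes were above it. The general value pools all genes, with or without a peak, and in a gene as short as *Nfic* a single peak moves the density strongly. The 4 bodies together held 23 peaks at 2.59 per 100 kb.

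**Figure D2:**
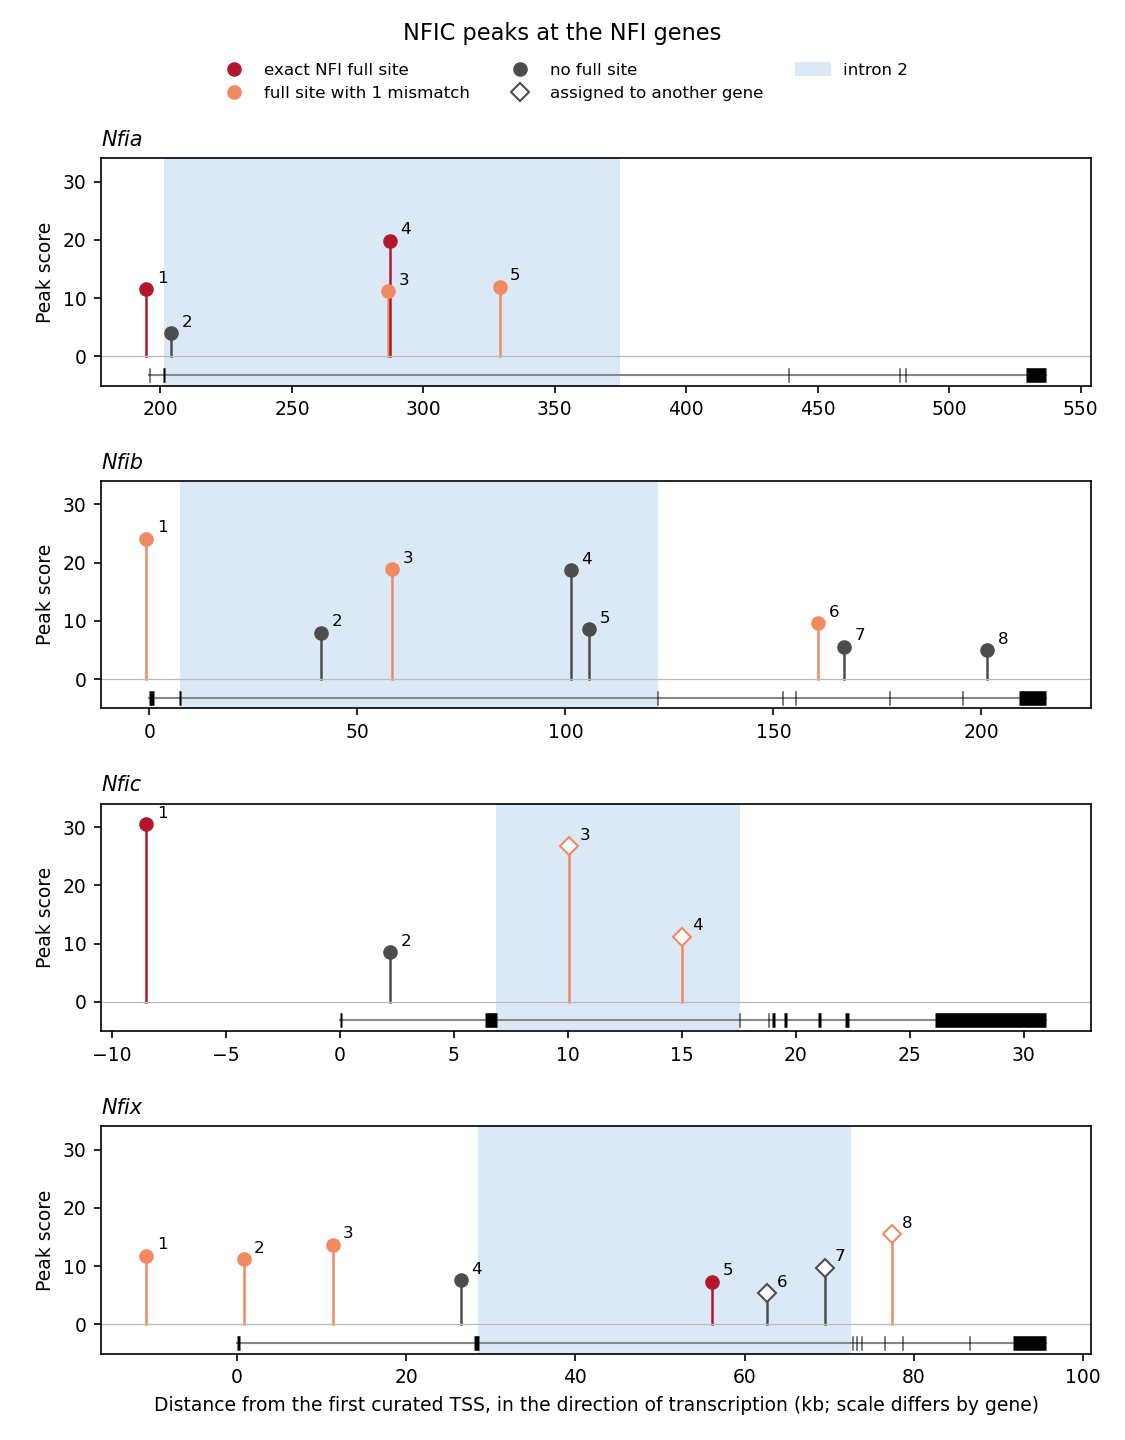
Peak score (y axis, authors' units) against the distance of each peak from the first curated TSS of its gene (x axis, kb, on a scale of its own per gene), with exons as black boxes below. Circles are peaks assigned to the gene and open diamonds peaks inside it that are assigned to another gene, colours give the best NFI full site, and blue shading marks intron 2, which holds 13 of the 25 peaks.

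The exon-intron structure was taken from the curated transcript that the authors' annotation names most often for peaks in each gene. In all 4 of these transcripts exon 2 had a length of 532 bp. This exon codes for most of the conserved DNA-binding domain. Intron 2, which follows it, held 13 peaks: 4 in *Nfia*, 4 in *Nfib*, 2 in *Nfic* and 3 in *Nfix*. Of these, 9 are assigned to the NFI gene itself, and the other 4 (both in *Nfic* and 2 in *Nfix*) to *Mir1191b*, *Gm16104* or *Lyl1*. These introns are long, at 173 kb in *Nfia*, 115 kb in *Nfib*, 43.8 kb in *Nfix* and 10.6 kb in *Nfic*, and together take up 38.4% of the gene bodies. Their density was 3.80 peaks per 100 kb. Intron 1 of the same transcripts held 4 peaks in 45.0 kb (8.89 per 100 kb), all at *Nfic* and *Nfix*, and later introns held 4 in 266 kb (1.5 per 100 kb). For a comparison over the list, introns were numbered in the curated transcript with the most exons of every protein-coding gene, a choice that left the intron 2 peaks of the NFI genes at 13. Intron 2 of all genes held 0.801 peaks per 100 kb, intron 1 held 1.27 and later introns held 0.506. With the transcripts chosen in this way, intron 1 of the NFI genes held 5 peaks in 0.241 Mb, a density of 2.08, below that of intron 2. The order of introns 1 and 2 in these genes thus turned with the transcript chosen. Intron 2 had the same length and the same number of peaks in both choices. Its density of 3.80 was therefore 1 measurement, and the second choice was no check on it. None of these differences was tested, since the list has no replicates.

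*Nfib* (GeneID 18028; chr4:82290173-82506751, minus strand) had the most peaks of the family. Its highest peak, *Nfib*-1 (chr4:82506439-82506611), had a score of 24.1, ranked 102nd in the list, and was the only one of the 20 in the promoter window, from -1000 bp to the nearest TSS in the authors' annotation. Such a promoter peak was found for 10.3% of protein-coding genes. It lay at -746 bp of the curated TSS, which is 226 bp past a predicted TSS of the RefSeq annotation, and it overlapped an exon of *Nfib* there. Its window had a GC content of 82.5%, the highest of the 25 peaks, and an observed to expected CpG ratio of 0.943, and held a full site with 1 mismatch 14 bp from the centre. No other peak of *Nfib* was nearer than 41342 bp to the curated TSS.

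The remaining peaks of *Nfib* were spread along its introns. In intron 2, *Nfib*-2 at 41342 bp had a score of 7.97, *Nfib*-3 at 58405 bp had 18.9, *Nfib*-4 at 101322 bp had 18.7 and *Nfib*-5 at 105648 bp had 8.56. The centres of the last pair lay 4326 bp apart. In intron 6, *Nfib*-6 at 160805 bp had a score of 9.56 and *Nfib*-7 at 167081 bp had 5.58, and *Nfib*-8 in intron 9 at 201410 bp had 4.98. Scores in the 3 peaks past intron 2 were thus below those of *Nfib*-3 and *Nfib*-4. *Nfib*-2 also overlapped an exon of the noncoding gene *2310067E19Rik*.

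The full site was less frequent at *Nfib* than at *Nfia* and *Nfix*, being present in 3 of 8 peaks (*Nfib*-1, *Nfib*-3 and *Nfib*-6) and exact in 0. Each of the 5 peaks of *Nfib* without a full site held at least 1 single arm: 4 copies in *Nfib*-4, 3 in *Nfib*-5 and 1 each in *Nfib*-2, *Nfib*-7 and *Nfib*-8. *Nfib*-4 and *Nfib*-3 differed little in score (18.7 and 18.9), although the one had single arms and no full site and the other had 2 full sites with 1 mismatch each and no such arm.

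*Nfic* (GeneID 18029; chr10:81396191-81431919, minus strand) is the gene of the precipitated protein. Its upstream peak, *Nfic*-1 (chr10:81435569-81435741), had a score of 30.5, the highest of the family and 37th in the list. It was annotated as intergenic at -8482 bp of the curated TSS and was centred at -3736 bp of a predicted TSS. Its exact site was centred 7 bp from the peak centre. *Nfic*-2 (chr10:81424884-81425056), in intron 1 at 2203 bp, had a score of 8.56 and was the only peak assigned to a member with neither a full site nor a single arm. It held an AP-1 motif (TGAGTCA) and an SP motif (GGGCGG).

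Another 2 peaks lay inside *Nfic* in intron 2 and are not counted as peaks of *Nfic*, because the annotation names the gene at the nearest TSS. *Nfic*-3 (chr10:81417027-81417199) had a score of 26.7, ranked 63rd in the list, and was assigned to the microRNA gene *Mir1191b* at -816 bp in the promoter-TSS class of HOMER, but lay 10060 bp into *Nfic*. Its window had a GC content of 75.5% and held 2 full sites with 1 mismatch, 9 bp and 20 bp from the centre, beside 3 SP motifs. *Nfic*-4 (chr10:81412083-81412255) had a score of 11.2, was assigned to the noncoding gene *Gm16104* and lay 15004 bp into *Nfic*. When each peak was assigned to the nearest TSS of a protein-coding gene, *Nfic* had 4 peaks instead of 2, with scores from 8.56 to 30.5. The locus thus held 2 of the 63 highest peaks of the list, of which the annotation credits 1 to *Nfic*.

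*Nfia* (GeneID 18027; chr4:97578066-98118876, plus strand) is the longest member and had 5 peaks, of which 4 lay past the second of its 2 curated TSSs. No peak was centred in the 194580 bp between its first curated TSS and *Nfia*-1. *Nfia*-1 (chr4:97776437-97776609), at -1103 bp of the second curated TSS and just outside the promoter window, had a score of 11.6 and an exact site 10 bp from the centre. Repeat-masked bases made up 48.0% of its window. *Nfia*-2 at 8437 bp had a score of 3.98, the lowest of the 20 peaks, and held no full site. *Nfia*-3 and *Nfia*-4 were centred 721 bp apart, the closest pair in the family, and scored 11.2 and 19.9. *Nfia*-4 (chr4:97869156-97869328) lay at 91616 bp and ranked 276th in the list. *Nfia*-3 overlapped an exon of the noncoding gene *Gm19417*. *Nfia*-5 at 133281 bp had a score of 12.0 and 2 full sites with 1 mismatch, 45 bp and 93 bp from the centre. A full site was present in 4 of 5 peaks of *Nfia* and exact in 2.

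*Nfix* (GeneID 18032; chr8:84704712-84801238, minus strand) has 5 curated and 10 predicted TSSs in the RefSeq annotation, the most of the family. Its 5 assigned peaks had scores from 7.37 to 13.7, a narrower range than those of the other members. *Nfix*-1 (chr8:84811007-84811179), intergenic at -10755 bp, had a score of 11.8, and *Nfix*-2 (chr8:84799484-84799656), in intron 1 at 768 bp, had 11.2. Both windows were rich in GC (72.0% and 73.0%) and held a site with 1 mismatch 59 bp from the centre. *Nfix*-3 (chr8:84788976-84789148) in intron 1 had the highest score of the assigned peaks, 13.7, with a site 12 bp from the centre. *Nfix*-4 (chr8:84773850-84774022), annotated as 5′ UTR at 433 bp, had a score of 7.57 and no full site, and its distance depended on the annotation, being -526 bp of the nearest curated TSS in RefSeq. *Nfix*-5 (chr8:84744091-84744263) in intron 2 had the lowest score, 7.37, and an exact site 16 bp from the centre.

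Toward the 3′ end of *Nfix*, 3 peaks in its introns were assigned to *Lyl1*, a bHLH factor of blood and endothelial cells whose gene adjoins *Nfix*. *Nfix*-6 had a score of 5.38, *Nfix*-7 had 9.76 and *Nfix*-8 had 15.5, and they lay 36317, 29462 and 21541 bp from the TSS of *Lyl1*. *Nfix*-8 (chr8:84722912-84723084), in intron 7, scored higher than the 5 peaks assigned to *Nfix* and held a site with 1 mismatch. Its window also overlapped an exon of *G430095P16Rik*, and 34.5% of its bases were repeat-masked. *Nfix*-6 and *Nfix*-7 held no full site, and *Nfix*-7 held the only GATA motif (GATAAG) of the 25 peaks. *Lyl1* had no other peaks than these 3.

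**Figure D3:**
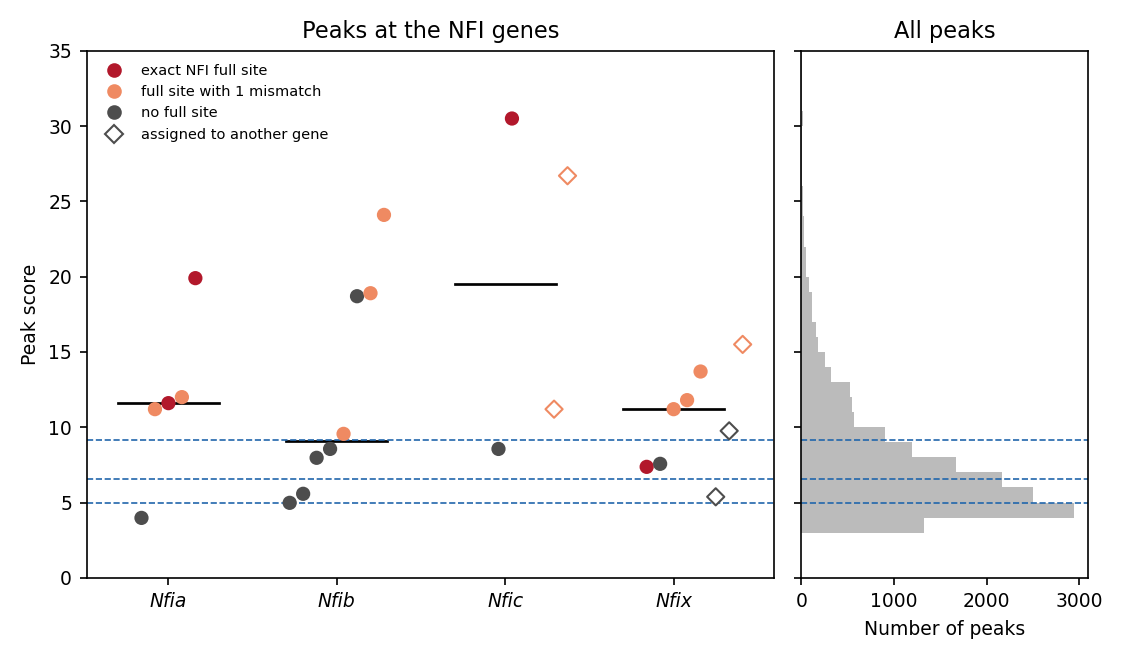
Peak scores (y axis, authors' units) of the peaks at each NFI gene (left) and of all peaks of the list as a histogram (right), with the axis ending short of the highest scores of the list. Black bars are medians over assigned peaks (11.6, 9.06, 19.5 and 11.2 from left to right) and dashed blue lines the quartiles of the list. The *Nfib* median is the lowest, and the peaks of *Nfix* with filled symbols span the least.

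Over the family, a full site was present in 12 of the 20 peaks (60.0%), against 51.8% of all peaks of the list. An exact site was present in 4 (20%), against 13.4%. By these counts the NFI genes were near the list as a whole. Within the family the site went with the score. Of the 12 peaks in the upper quartile 11 held it, with *Nfib*-4 the exception, whereas 1 of 5 in the second quartile and 0 of the 3 lower ones did. The first count depends on the window of 200 bp. In *Nfia*-5, *Nfix*-1 and *Nfix*-2, all of the upper quartile, the best site lay 45, 59 and 59 bp from the centre. None of them held a full site in a window of 100 bp, where 9 of the 20 peaks did. In the list as a whole the shares were 68.0%, 51.1%, 44.2% and 43.1% from the upper to the lowest quartile. The score comes from the merged reads, which also placed the window in which the reference sequence was searched. Both score and site can depend on base composition, and the number of peaks per quartile is small. Of the 8 peaks without a full site, 7 held a single arm (87.5%), against 34.3% of the peaks without a site in the list. Counted over all peaks, the single arm was present in 12 of 20 (60.0%), against 33.7% of the list. This count includes the arms in *Nfia*-1 and *Nfix*-5 that are part of a full site. The distance of the best site from the peak centre had a median of 18.5 bp in the 12 peaks and of 24.0 bp in the list, and it was within 20 bp in 7 of 12 (58.3%), against 43.8%.

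**Figure D4:**
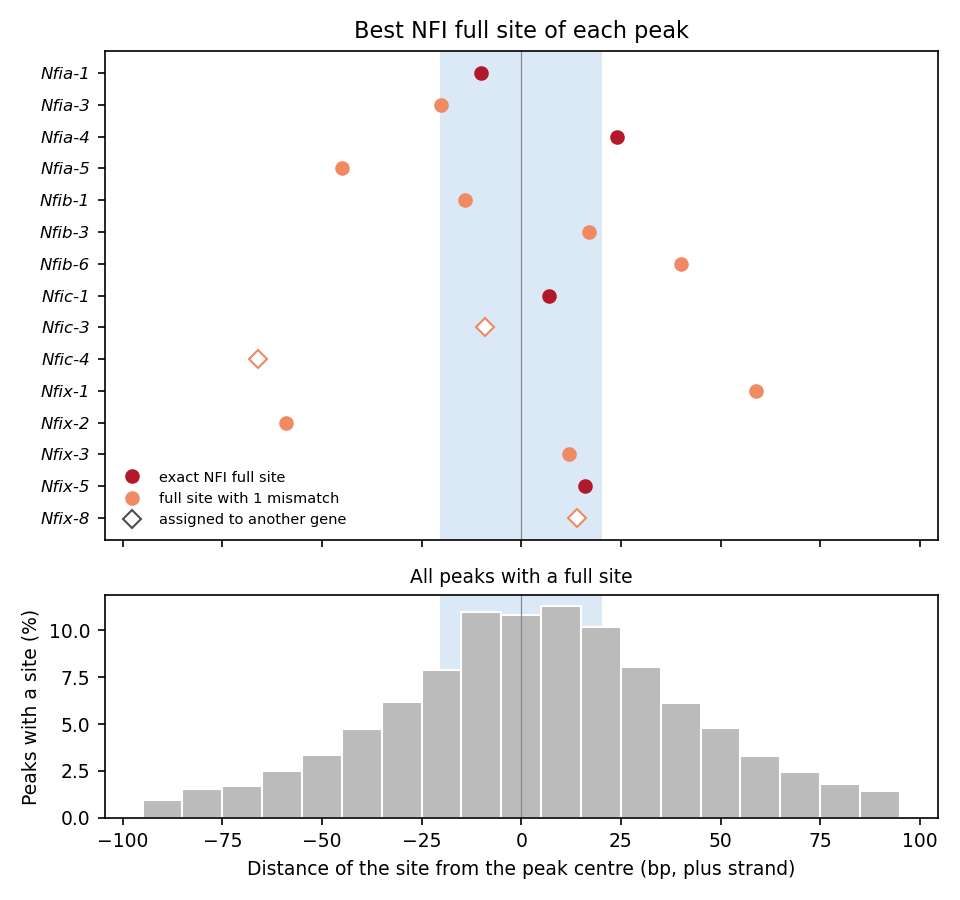
Distance of the best NFI full site from the peak centre (x axis, bp) for the 15 peaks with a site at the NFI genes (top, circles for assigned peaks and diamonds for peaks assigned to other genes) and for all peaks of the list with a site (bottom, share of peaks in percent). Blue shading marks 20 bp to each side, where 9 of the 15 lay.

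Motifs of other factors were searched on both strands in the same windows. The E-box of bHLH proteins (CAGCTG or CAGATG) was present in 7 of the 20 peaks, against 32.5% of the list, and the E-boxes of *Nfix*-5 and 1 of the 2 of *Nfic*-1 overlapped the full site. The SP motif was present in 4 of 20, against 21.1%, and 1 of its 2 matches in *Nfix*-1 overlapped the full site. FOX (TGTTTAC or TATTTAC) was present in 3 of 20, against 6.38%, and AP-1 in 1 of 20, against 3.65%. GATA was present in 0 of 20, against 7.74%. The motif of NR5A2, an acinar nuclear receptor that the study examined as a partner of NFIC, was present in 0 of 20, against 3.64%, with T or C allowed at 2 positions (TCAAGGTCA, TCAAGGCCA, CCAAGGTCA or CCAAGGCCA). The E-box, SP and AP-1 shares were close to those of the list, and the other counts are small. No match says only that these letters are not in the 200 bp. The count for NR5A2 therefore does not show that this receptor is absent from the NFI genes. Close to the start of *Nfic*, the paper detected NR5A2 and the acinar factor PTF1A by ChIP-qPCR. It had found peaks of both there in published ChIP-Seq data. The paper proposes that both factors target *Nfic*. The list used here holds no ChIP of NR5A2 or PTF1A, so their binding at these genes was not tested.

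The RefSeq promoter sequences, from 250 bases before to 50 after a gene's start, covered *Nfia* (1), *Nfic* (1) and *Nfix* (4). In these 6 promoters a full site and a single arm were present in 0, against 15.3% and 14.1% of 32851 promoters. No peak was centred in them. From the middle of the promoter, the nearest peak centre lay 426 bp away at *Nfix*, 2303 bp at *Nfic* and 194681 bp at *Nfia*. The start of *Nfia* covered here is its first TSS, whereas its peaks lay around and past its second. *Nfib*, the only member with a promoter peak, had no promoter in this set. The first curated TSS of *Nfix* was not covered either, and *Nfix*-2 lay 798 bp past it.

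Of the 8 nearest protein-coding neighbours of the NFI genes, 3 had an assigned peak (37.5%), close to the 35.9% of all protein-coding genes, with 6 peaks in all. *Smim24* and *Celf5* on the sides of *Nfic*, *Gm12695* beside *Nfia*, *Mpdz* beside *Nfib* and *Dand5* beside *Nfix* had 0 assigned peaks. *Zdhhc21* beside *Nfib* had 1, with a score of 4.58. *Tm2d1*, which is 236 kb from *Nfia*, had 2 peaks, the higher with a score of 14.5, and *Lyl1* had the 3 peaks inside *Nfix*. The 30.5 peak lay in the 27.3 kb between *Nfic* and *Celf5*, and the 11.8 peak in the 14.2 kb between *Nfix* and *Dand5*.

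Finally, the family was set beside 2 lists of genes. Of 8 acinar transcription factors, all 8 had a peak, with 25 peaks in all, 2 genes with 5 or more and 2 with a promoter peak. The highest scores were 18.3 at *Nr0b2*, 17.9 at *Bhlha15* and 17.5 at *Gata6*, and the median of the highest scores was 14.1. Of 15 partners and proposed targets of NFI proteins, 9 had a peak, with 25 peaks in all, 3 genes with 5 or more and 2 with a promoter peak. The highest scores were 22.1 at *Hes1*, a Notch target, and 15.1 at *Nr5a2*, which is in both lists and had 7 peaks, and the median over the 9 genes with a peak was 7.77. The 4 NFI genes had a median highest score of 22.0, with 3 genes at 5 or more peaks and 1 with a promoter peak. A highest score is taken over all peaks of a gene, and it can rise with their number. The number of peaks per gene differed between the family and the 2 lists, so these medians do not compare strength of binding. *Nfic*, *Nfib* and *Nfia* each had a peak with a score above the highest of the 8 acinar factors, and *Nfix* did not. At *Nfia* the scores compared were 19.9 and 18.3, and peaks so near in score cannot be ranked.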

How the data were processed

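NFIC ChIP-Seq of wild-type pancreas (3 libraries) and input DNA (1) is represented by 1 merged peak list, deposited by the authors. The submitters' processing notes name BWA, Picard, MACS2 and mm10. The list's header names annotatePeaks.pl of HOMER. For downloaded ChIP-Seq data, the paper's methods give RUbioSeq+ as the tool that aligned reads and called peaks, and HOMER as the tool that merged replicates and annotated peaks. Whether the NFIC libraries were treated alike, the thresholds and the criterion for merging are not given in the sources used here. The peak score is the authors' score per peak as deposited. The authors also deposited a focus ratio, which is a fraction, and no result here rests on it. The depth of each library is unknown.

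Peaks were taken as deposited, without a filter on score, with the authors' gene at the nearest TSS. The genes and lists were chosen with earlier results of these data known. Named were all 4 members with every peak, other genes given peaks inside them, the nearest protein-coding neighbours, and the highest genes of each list. Sequences, TSSs and introns came from RefSeq GRCm38, whose release may differ from the authors' annotation. The authors' distance was equal to that of the nearest curated TSS, within 1 bp, for 15 of the 20 peaks. The searches were tested on simulated sequences. Counts were made with numpy 2.4.6 and pandas 2.3.3 in Python 3.11, and figures with matplotlib 3.10.9. Alternatives varied the score quartiles kept, gene assignment, merging, promoter window, mismatches and motif window.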

Additional observations from a re-analysis of the deposited data

How the results depend on the processing

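The number of peaks of the NFI genes was 17 with the upper 2 quartiles of score, 19 with peaks within 1000 bp merged, 23 when counted in gene bodies and 26 by the nearest protein-coding TSS of RefSeq, against 20 as deposited. By that last rule *Nfic* had 4 peaks instead of 2, *Nfib* 11 instead of 8 and *Nfix* 6 instead of 5, and *Nfia* kept 5. The number of promoter peaks was 1 as reported, 3 with the window from -1000 to 1000 bp and 2 with the window from -5000 bp. It was also 2 by the nearest curated TSS of RefSeq, which adds *Nfix*-4, an alternative chosen after seeing the data. The median score was 11.2, and became 9.56 without the peaks of *Nfia* and 11.4 without those of *Nfib*. The full site was present in 12 peaks, in 12 when searched in the deposited interval, in 9 within 100 bp and in 4 without mismatch, where the list gave 51.8%, 50%, 39.4% and 13.4%. No paired analysis was possible because the list has no values per library. Leaving out a replicate was not possible for the same reason. The score has no known error, so peaks of nearly equal score cannot be ranked.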
